A study of Danio rerio with 2 samples.

Results

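The genes described here encode the core proteins of the spliceosome and the RNA-binding proteins that steer it. They were taken by symbol, as the probes whose gene symbol began with snrp, snrnp, sf3a, sf3b, srsf, sfrs, hnrnp, hnrp, prpf or u2af, or with lsm and a digit. The rule took 172 of 43553 probes, which read 74 of 27719 genes and unnamed targets. Total RNA came from Tg(RE:HSE:EGFP) embryos of the F2 generation, in which a heat shock promoter that works in both directions drives EGFP on one side and human RUNX1-Evi-1, a leukaemia fusion gene, on the other, and from WT embryos of the same AB strain. Both groups were heat shocked at 38 °C for 1 hour and sampled at 72 hpf. The protocol places the heat shock between 14 and 18 hpf, and the study's methods for the arrays give a single time within that window. The study describes the promoter as without tissue preference, but holds that heat stress acts more on white blood cells than on others. The sources differ on the material: the labels name embryos and the methods describe no separation of tissues for the arrays, while the study's results name blood cells. Markers of skeletal muscle, epidermis, lens and neurons were above background on the Tg array and, but for the neuron gene sypa, on the WT array, and the values are read here as those of whole embryos, in which fewer cells of a type and less RNA per cell cannot be told apart. The methods describe repeated analysis of the samples, and 1 one-colour Agilent array per group was analysed here, so no spread between embryos and no p-value can be given, and array and genotype cannot be told apart.

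The spliceosome removes introns from pre-mRNA. It is built from small nuclear ribonucleoproteins (snRNPs), each a small RNA held in a ring of Sm or LSm proteins with further subunits of its own. U1 snRNP binds the start of the intron, U2AF the end of it, and U2 snRNP with SF3A and SF3B the branch point, after which the tri-snRNP joins and PRPF8 forms the heart of the active machine. SR proteins mostly favour the inclusion of exons to which they bind, and hnRNPs often oppose them. In human myelodysplastic syndromes, a disease to which the fusion gene has been linked, SF3B1, SRSF2, U2AF1 and ZRSR2 are the splicing factors recurrently mutated.

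Values are the deposited normalized log2 signals, and a difference is the Tg array minus the WT array on that scale. A gene was read from its brightest probe, under the current symbol of the reference gene table with the symbol of the files in brackets where they differ. The background limit was 6.69 on both arrays, the 95th percentile of the signals of 182 chemoreceptor probes (odorant, trace amine and taste receptors). Of the 74 genes, 73 were above background on both arrays. The exception was srsf7b (sfrs7), whose brightest probe stood at 5.84 on the Tg array and 6.19 on the WT array.

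The splicing factor genes as a whole differed little between the arrays. Of the 73 genes, 35 were higher and 38 lower on the Tg array. Of all 16508 genes above background, 7931 were higher and 8551 lower. The median difference was -0.004 for the 73 genes and -0.025 for all genes. The quartiles of the 73 genes were -0.27 and 0.25, and those of all genes -0.37 and 0.33. Only hnrnpl (hnrpl) was at least 2-fold higher on the Tg array, 1 gene of 73, where 4.7% of all genes were. None was at least 2-fold lower, where 3.56% of all genes were, and 8.26% of all genes passed 2-fold in one direction or the other. At 1.5-fold, 10 of the 73 were higher, beside 12.3% of all genes, and 5 were lower, beside 12.6%, with 24.9% of all genes past 1.5-fold in either direction. In all, 55 of the 73 differed by less than 0.5, 12 were higher by at least 0.5 and 6 were lower by at least 0.5. By comparison the 70 genes of cytosolic ribosomal proteins above background had a median of -0.035 with none past 1.5-fold, and the 42 proteasome genes one of 0.46 with 14 past 1.5-fold upward, though no test of these differences was possible with 1 array per group.

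**Figure D1:**
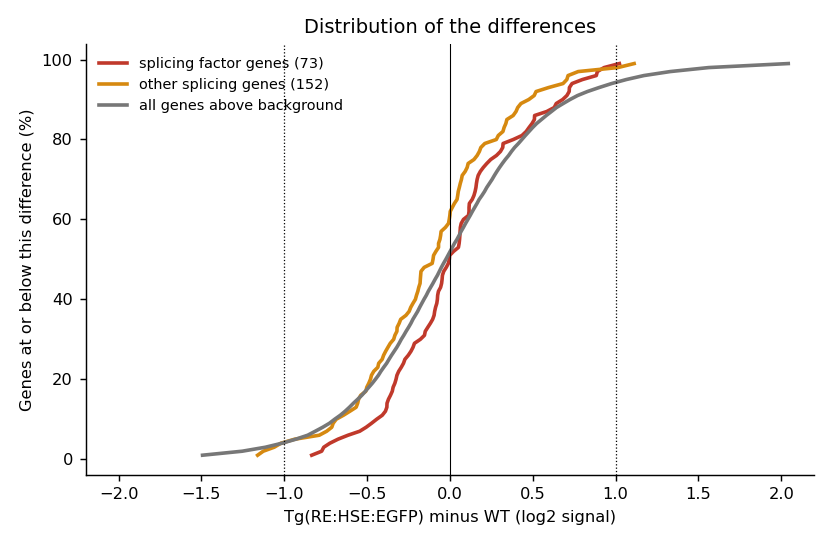
Cumulative share of genes (y axis, percent) at or below a given log2 difference, Tg array minus WT array (x axis), for splicing factor genes, other splicing genes and all genes above background, drawn from the 1st to the 99th percentile. The curve of the splicing factor genes passes its middle close to 0 (median -0.004) and lies within 2-fold (dotted lines) up to its 98th percentile, while the curve of all genes reaches further out on both sides.

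By role, the medians of the groups ran from -0.35 for the 3 U1 genes to 0.24 for the 2 genes of the minor spliceosome, which removes a rare class of introns. Between them lay U2AF (-0.21, 3 genes), SR proteins (-0.18, 14 genes), other PRPF factors (-0.15, 4 genes), LSm proteins (-0.07, 7 genes), hnRNPs (0.03, 16 genes), U2 snRNP with SF3A and SF3B (0.06, 9 genes), the tri-snRNP (0.10, 8 genes) and the Sm core (0.21, 7 genes). With 1 array per group this order was not tested, and the genes of most groups lay on both sides of 0.

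**Figure D2:**
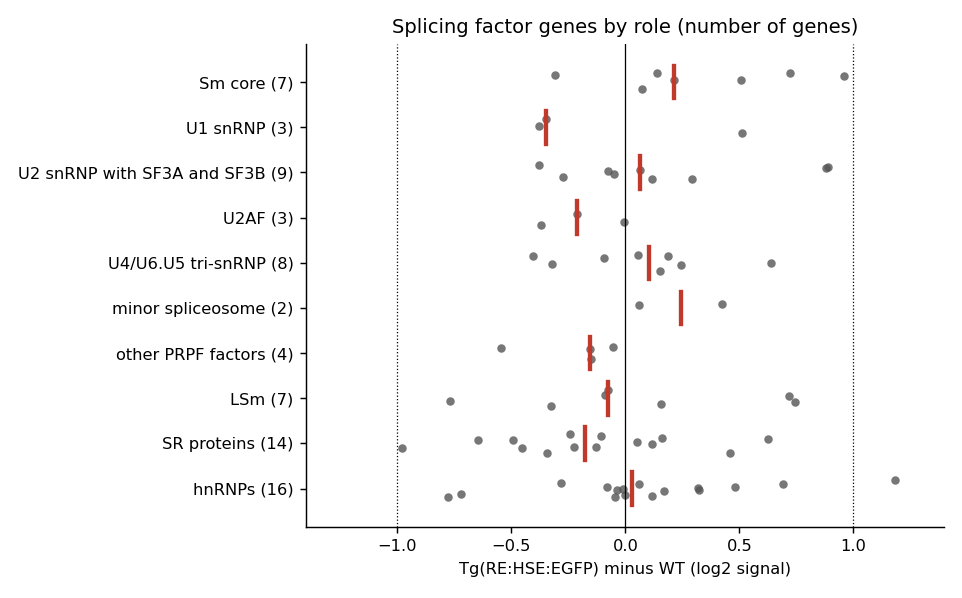
Log2 difference, Tg array minus WT array (x axis), of 73 splicing factor genes above background, 1 point a gene, in rows by role with the number of genes. Red bars mark group medians and dotted lines 2-fold. All genes of U2AF and of the other PRPF factors lie below 0, 6 of 7 Sm core genes lie above it, and hnrnpl alone passes 2-fold.

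The Sm proteins form the ring that wraps the snRNAs of U1, U2, U4 and U5. Here 6 of 7 genes were higher on the Tg array, none of them by 2-fold. The largest difference was that of snrpd3l, a gene for SmD3, at 14.01 on the Tg array and 13.05 on the WT array (0.96, 1.95-fold). Its second probe differed by 0.97. The other SmD3 gene, snrpd3, stood at 13.15 on the Tg array and 12.43 on the WT array (0.72, 1 probe above background). For snrpf (snrpfl), of SmF, the signal was 14.38 on the Tg array and 13.88 on the WT array (0.51). The genes for SmE, SmD2 and SmD1 were closer to 0, with snrpe at 0.21, snrpd2 at 0.14 and snrpd1 at 0.07. The sign of snrpd1 depended on the probe, as its other probes, of similar signal, were at -0.13 and 0.17. The exception in direction was snrpb, for SmB, at 16.07 on the Tg array and 16.38 on the WT array (-0.31), with its second probe at -0.25. The proteins of the ring were thus not all read in 1 direction, and each probe of snrpd3l lay far above 0 while both of snrpb lay below it.

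LSm proteins form the like ring of U6, and a cytoplasmic ring that starts mRNA decay. In the U6 ring, lsm8 stood at 13.52 on the Tg array and 12.77 on the WT array (0.74, 1.67-fold), and its second probe at 1.00. Likewise lsm6 stood at 14.24 on the Tg array and 13.52 on the WT array (0.72, 1.65-fold), with its other probes at 0.94 and 0.61. The lsm6 probe at 0.61 maps to the strand opposite to that of the others. Near 0 were lsm4 (0.16) and lsm7 (-0.07). Outside the ring, lsm14aa (lsm14a), for a protein of cytoplasmic mRNA granules, stood at 9.87 on the Tg array and 10.64 on the WT array (-0.77). Its other probes differed by less, between -0.10 and -0.20. Also below 0 were lsm12b (lsm12) at -0.33 and lsm11, of the U7 snRNP that processes histone mRNA, at -0.09.

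U1 snRNP recognizes the 5′ splice site. Of its 3 genes, snrpa, for the A protein, stood at 14.22 on the Tg array and 14.60 on the WT array (-0.38). The gene of its 70K protein, snrnp70, stood at 12.61 on the Tg array and 12.96 on the WT array (-0.35). The third, snrpc, for the C protein, stood at 13.60 on the Tg array and 13.09 on the WT array (0.51). The second probe of snrpc was at 0.84, that of snrpa at -0.03 and that of snrnp70 at 0.16, so both snrpc probes lay above 0.5 while the lower values of snrpa and snrnp70 rest on their brightest probes.

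In U2 snRNP and its SF3 complexes, 5 of 9 genes were above 0. The genes of small SF3B subunits were the highest of them, with sf3b5 at 13.92 on the Tg array and 13.03 on the WT array (0.89, 1.85-fold) and sf3b6 (sf3b14), whose protein touches the branch point, at 14.15 on the Tg array and 13.27 on the WT array (0.88, 1.84-fold). Each rests on 1 probe above background. The scaffold gene sf3b1 differed by -0.05, sf3b3 by -0.08 and sf3b4 by 0.12. Of SF3A, sf3a1 stood at 12.32 on the Tg array and 12.70 on the WT array (-0.38), with its other probes at -0.28 and -0.80, sf3a3 was at -0.27 and sf3a2 at 0.06. The U2 gene snrpb2 was at 0.29. The 3 U2AF genes, which read the 3′ end of the intron, were below 0, by little for u2af1 (-0.004) and by more for u2af2b (-0.21) and u2af2a (-0.37). The second probe of u2af2a, close to background, was at 0.09, and the other probes of u2af2b were at 0.12 and -0.46. The direction was thus not shared by all probes of either gene.

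The tri-snRNP brings U4, U6 and U5 to the intron. Among its genes taken by the rule, the highest was snrnp40, for a WD-repeat protein of U5. The gene stood at 11.11 on the Tg array and 10.47 on the WT array (0.64, 1.56-fold, 1 probe). The lowest was prpf8, at 11.78 on the Tg array and 12.18 on the WT array (-0.41). Its other probes above background, each close to the limit, were at -0.37 and -0.10. Between them lay prpf31 (0.25), snrnp27 (0.19), prpf4 (0.15), prpf38a (0.06), prpf4bb (prpf4b, a kinase of the complex, -0.10) and prpf3 (-0.32). Of the other PRPF genes, prpf39, whose counterpart belongs to the U1 snRNP of yeast, was at -0.06 with its second probe at 0.41, prpf18 at -0.15 and prpf38b at -0.16. The genes prpf38a and prpf38b are separate genes in spite of their names. Of the minor spliceosome, snrnp48 was at 0.42 and snrnp35 at 0.06.

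**Figure D3:**
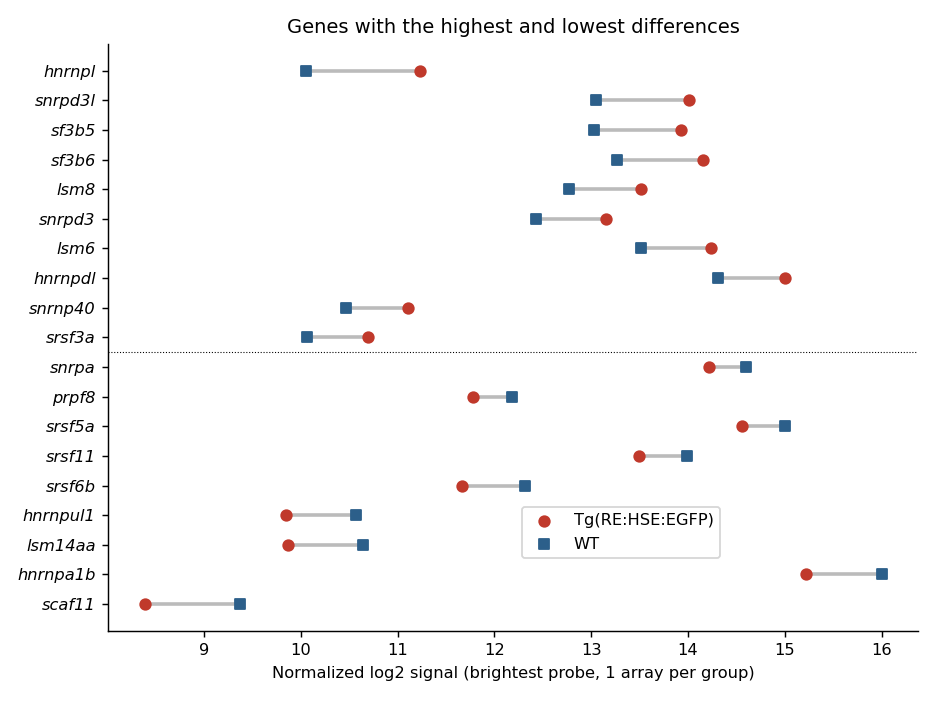
Normalized log2 signal (x axis) of splicing factor genes with the highest (above the dotted line) and lowest (below it) differences, by brightest probe and without the group of other PRPF factors, on the Tg array (red circles) and the WT array (blue squares). The differences run from 1.18 for hnrnpl at the top to -0.98 for scaf11 at the bottom, and each pair of points but that of hnrnpl lies less than 1 log2 unit apart.

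Among SR and SR-related genes, 5 of 14 were higher and 9 lower on the Tg array. The 10 classical SR genes that the rule takes in and that were above background were evenly split, 5 and 5, with a median of -0.03. The 4 genes of SR-related proteins were each below 0 (median -0.42), namely scaf11 (sfrs2ip), a partner of SRSF2, at 8.39 on the Tg array and 9.37 on the WT array (-0.98, 1.97-fold, 1 probe), srsf11 (sfrs11) at 13.50 on the Tg array and 13.99 on the WT array (-0.49, 1 probe), pnisr (sfrs18) at -0.34 and sfswap (sfrs8) at -0.23. The classical gene with the highest difference was srsf3a (sfrs3a), at 10.69 on the Tg array and 10.07 on the WT array (0.63), and srsf3b (sfrs3b) stood with it at 14.77 on the Tg array and 14.31 on the WT array (0.46). The other probes of srsf3b were at 0.38 and 0.70. SRSF3 is the smallest of the classical SR proteins and also takes part in mRNA export. The lowest classical gene was srsf6b (sfrs6b), at 11.67 on the Tg array and 12.32 on the WT array (-0.65, 1.57-fold), with its second probe, close to background, at -0.77. For srsf5a (sfrs5a) the brightest probe stood at 14.55 on the Tg array and 15.00 on the WT array (-0.45). Closer to 0 lay srsf5b (sfrs5b) at -0.24, srsf1b (sfrs1b) at -0.13, srsf1a (sfrs1a) at 0.05 and srsf4 (sfrs4) at 0.12.

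Among hnRNPs, 8 genes were higher and 8 lower. The gene hnrnpl, whose protein binds CA-rich RNA and regulates exon use, stood at 11.23 on the Tg array and 10.05 on the WT array (1.18, 2.27-fold). That probe lies at chr5:35069145-35069204 on the minus strand, on the build Zv8 by the scaffold names in the files, and exon annotation of that build was not used here. A second probe, which maps in parts across 4366 bases and so spans an intron, was at 0.53, 8.67 on the Tg array and 8.14 on the WT array. With the mean over both probes hnrnpl was at 0.86, below 2-fold. Next came hnrnpdl (hnrpdl), at 15.00 on the Tg array and 14.31 on the WT array (0.69, 1 probe). At the other end hnrnpa1b (hnrnpa1), an abundant hnRNP that represses splice sites, stood at 15.22 on the Tg array and 16.00 on the WT array (-0.78, 1.71-fold), with its second probe at -0.96. The gene hnrnpul1, for a relative of the scaffold attachment factor, stood at 9.85 on the Tg array and 10.57 on the WT array (-0.72, 1 probe). Differences near 0 were those of hnrnpaba (hnrnpab, 0.12), hnrnpa0l (-0.01), hnrnpa0b (hnrnpa0, -0.05) and hnrnpl2 (-0.001). Of the rest, hnrnph1 was at 0.48, but its second probe, of similar signal and nearer the 3′ end, was at -0.05. The genes hnrpkl and hnrnpk were at 0.32, hnrnph1l at 0.17, hnrnpr (hnrpr) at -0.04, hnrnpub (hnrnpu) at -0.08 and hnrnpd at -0.28. Close to background on both arrays was hnrnpa3 (0.06).

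The 3 factors of myelodysplastic syndromes that the rule takes in showed small differences. The brightest sf3b1 probe stood at 12.19 on the Tg array and 12.24 on the WT array, and its other probes differed by -0.06 and 0.36. For srsf2a (sfrs2) the 5 probes lay between -0.11 and 0.58, with the brightest at 13.71 on the Tg array and 13.81 on the WT array. For u2af1 the probes lay at -0.004 and -0.08, the brighter at 13.77 on both arrays. The fourth factor, zrsr2, a U2AF relative of the minor spliceosome, is not taken in by the rule. It was close to background, at 6.84 on the Tg array and 7.55 on the WT array (-0.71), and its second probe was at 0.09.

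Several splicing factors have duplicates in zebrafish, and the files list some of the second copies under clone names. Naming the probes through the reference gene table added 22 genes, each above background on at least 1 array, and gave 93 genes, 92 of them above background, with a median of 0.04. Of the 22 added genes only lsm1, of the cytoplasmic decay ring, was at least 2-fold higher, where 4.7% of all genes were. It stood at 11.67 on the Tg array and 10.62 on the WT array (1.06, 2.08-fold, 1 probe). The SF3B gene sf3b2 stood at 13.16 on the Tg array and 13.84 on the WT array (-0.68, 1 probe). The Sm gene snrpg was at 0.25, lsm5 at 0.37 and the U5 helicase gene snrnp200 at -0.24. Of the SR genes added, srsf9 was at 0.30, srsf2b at 0.27, srsf7a at 0.12 and srsf10b at -0.07. The signal of srsf7a was 13.40 on the Tg array and 13.28 on the WT array.

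With these, 12 duplicate pairs could be set side by side, 8 with the same sign and 4 with opposite signs. Both copies of lsm14a were lower on the Tg array, lsm14aa at -0.77 and lsm14ab at -0.71, and so were both copies of hnrnpa1, hnrnpa1a at -0.60 and hnrnpa1b at -0.78. The likeness in size of the lsm14a copies rests on their brightest probes. The other lsm14aa probes lay between -0.10 and -0.20, and those of lsm14ab were at -0.50 and -0.45. Both copies of srsf3 were higher, by 0.63 and 0.46. The copies of srsf6 parted most. The brightest probe of srsf6a (sfrs6a) stood at 13.36 on the Tg array and 13.19 on the WT array (0.16) and its second probe at 0.64, while both srsf6b probes were below -0.6. In the pairs of hnrnpu, srsf1 and srsf2 the opposite signs came with differences of at most 0.27 in size. Whether each probe tells the copies apart was not tested.

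**Figure D4:**
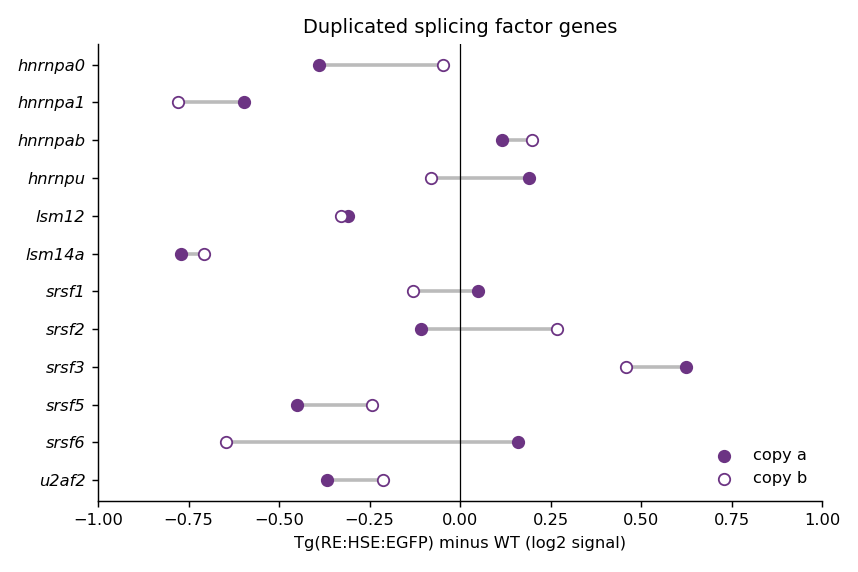
Log2 difference, Tg array minus WT array (x axis), of both copies of 12 duplicated splicing factor genes, copy a filled and copy b open, joined by a line, each by its brightest probe. The copies of lsm14a and hnrnpa1 lie together on the left, those of srsf3 on the right, and those of srsf6 lie on opposite sides of 0 (0.16 and -0.65).

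Several genes were read by more than 1 probe, which shows how far a difference holds along a transcript. On both arrays, 48 splicing factor genes had several probes above background. Of them 29 (60.4%) had probes of 1 sign, beside 72.3% of 5713 such genes over the arrays. The median range between the probes of a gene was 0.32, beside 0.26. No gene had probes past 0.5 in both directions. The closest agreement was that of snrpd3l (range 0.006), and the widest range was that of hnrnpaba, whose 7 probes lay between -0.19 and 1.03, the highest being the dimmest of them, at 9.41 on the Tg array and 8.38 on the WT array.

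In some genes the difference varied with the place of the probe. Distances between probes are counted in genome positions, so any intron between them is included. In srsf5a the most 3′ probes, at chr13:36810867-36810926 and 147 bases upstream of it, were at -0.45 and -0.56, while the probes 1728 and 4003 bases upstream were at 0.40 and 0.25. In srsf2a the most 3′ probe was at -0.11 and the probe 3356 bases upstream at 0.58. In hnrnpl2 the 3′ probes were at -0.12 and -0.001, and those 1922 and 3173 bases upstream at 0.53 and 0.40. Over 40 splicing factor genes with end probes at least 200 bases apart, the most upstream probe was higher than the most 3′ one in 24, with medians of 0.08 upstream and -0.05 at the 3′ end, beside 61.2% of 4577 genes over the arrays, with medians of 0.03 and -0.06. The most 3′ probe was also the brighter of the end probes in 37 of the 40 genes (92.5%), beside 86.0% over the arrays. Place along the transcript and signal level can thus hardly be told apart here. The part of signal level, RNA quality or labelling in these differences was not tested.

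**Figure D5:**
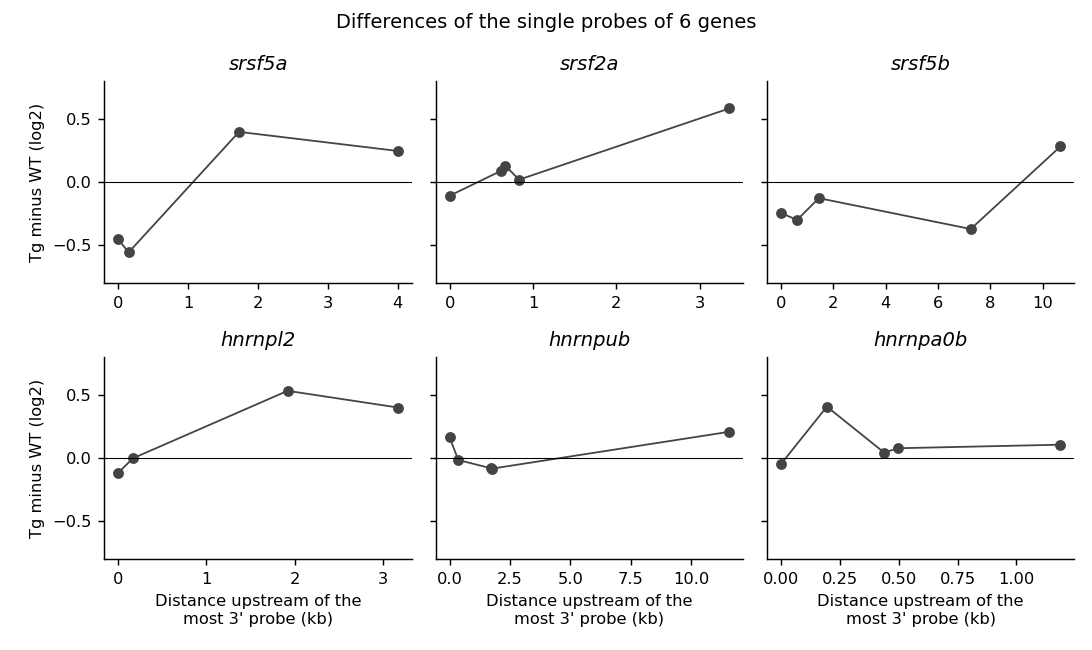
Log2 difference, Tg minus WT (y axis), of each probe above background on both arrays against its genomic distance, introns included, upstream of the most 3′ probe of its gene in kb (x axis), for 6 genes chosen after their values were seen. In srsf5a the sign turns between the 3′ probes (-0.45 and -0.56) and the upstream probes (0.40 and 0.25), while in hnrnpub and hnrnpa0b the probes stay within 0.41 of 0.

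Probes that map to the genome in parts, with a gap of at least 60 bases, span an intron and read spliced RNA. The 28 such probes of splicing factor genes above background had a median difference of 0.12 and the 127 unbroken ones of 0.02. Over the arrays 3233 probes in parts had a median of 0.03 and 19687 unbroken ones of -0.03. The offset between both kinds was thus small in the splicing factors and over all genes.

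The other genes of splicing were read from a list of 179 helicases, activation factors, exon junction proteins, tissue-specific regulators, kinases of SR proteins and assembly factors, of which 156 had a probe and 152 were above background. Their median was -0.10, with 59 higher and 93 lower, beside 7931 higher and 8551 lower of all 16508 genes above background. At least 2-fold higher on the Tg array were 4 of the 152, where 4.7% of all genes were, and at least 2-fold lower were 8, where 3.56% of all genes were. The highest was dnajc8, for a co-chaperone found in spliceosomes, at 13.75 on the Tg array and 12.53 on the WT array (1.22). For txnl4a, of the small U5 protein Dim1, the signal was 13.51 on the Tg array and 12.36 on the WT array (1.16), and for phf5a, of a small SF3B subunit, 13.73 on the Tg array and 12.66 on the WT array (1.07). The fourth, zmat5, of the minor spliceosome, stood at 9.51 on the Tg array and 8.49 on the WT array (1.02, 1 probe). The other probes of txnl4a were at 1.37 and 0.85 and that of dnajc8 at 1.16. With phf5a, sf3b5 and sf3b6, 3 genes of small SF3B subunits differed by between 0.88 and 1.07, while those of its larger subunits lay between -0.68 (sf3b2) and 0.12 (sf3b4). This grouping was made after the values were seen.

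Of the listed genes the lowest was bcas2, of the Prp19 complex that activates the spliceosome, at 9.02 on the Tg array and 10.47 on the WT array (-1.44, 2.72-fold, 1 probe). Of the other 7 past 2-fold, 5 were splicing regulators. The group of splicing regulators, 46 genes above background, had a median of -0.24, with 36 genes below 0, beside 8551 of all 16508 genes. None was at least 2-fold higher, where 4.7% of all genes were. At least 2-fold lower were 5 of the 46, where 3.56% of all genes were. The 5 were syncripl, of the hnRNP Q family (10.44 on the Tg array and 11.62 on the WT array, -1.18), esrp1 of epithelia (10.27 on the Tg array and 11.41 on the WT array, -1.14), nova2 of neurons (11.65 on the Tg array and 12.78 on the WT array, -1.13), mbnl1, which drives the muscle pattern of splicing (12.20 on the Tg array and 13.29 on the WT array, -1.09, with a second probe also at -1.09 and dim probes at 0.06), and nova1, close to background on the Tg array (6.94 on the Tg array and 7.94 on the WT array, -1.01). The other probes of nova2 lay between -0.84 and -0.10, and the second of esrp1, below background on the Tg array, was at -0.69. The differences past 2-fold of nova2 and esrp1 thus rest on their brightest probes. The other probes of syncripl were at -1.07 and, below background on both arrays, -0.15. The remaining genes past 2-fold, dhx38 (-1.04) and rbm5 (-1.02), are named, like nova1, after their values were seen. In the other groups of the list the medians lay between -0.11 for Prp19 and activation factors and 0.32 for the 6 genes associated with U1, of which 5 were above 0. The kinases of SR proteins had a median of 0.03 over 8 genes and the snRNP assembly factors of -0.10 over 12.

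Markers of cell types also differed between the arrays. Of 12 markers of proliferating cells with a probe, 11 were lower on the Tg array, all but pcna (median -0.94, log2 of the summed signal 17.59 on the Tg array and 18.46 on the WT array), and 4 of 5 neural progenitor markers were lower (median -0.70, 15.21 on the Tg array and 15.70 on the WT array). Epidermis markers were lower in 7 of 8 (median -0.46, 19.76 on the Tg array and 20.11 on the WT array), and erythrocyte markers had a median of -0.48, with 6 of 8 lower (20.40 on the Tg array and 20.43 on the WT array). Skeletal muscle markers were higher in 9 of 9 (median 0.86, 19.43 on the Tg array and 18.70 on the WT array), and so were neuron markers in 8 of 8 (median 0.37, 13.90 on the Tg array and 13.41 on the WT array), lens markers in 6 of 6 (median 1.15, 15.44 on the Tg array and 15.01 on the WT array) and myeloid markers in 6 of 6 (median 0.56, 14.29 on the Tg array and 13.54 on the WT array). Liver markers were split, 3 and 3 (18.83 on the Tg array and 18.77 on the WT array). Every marker with a probe was above background on at least 1 array. The epidermis markers ran the same way as esrp1, while the neuron and muscle markers ran opposite to nova2 and mbnl1. The neural progenitor markers, 4 of 5 of them lower, ran the same way as nova2. These regulators were named for being among the lowest of the list. In their group 36 of 46 genes were below 0 and 10 above. Above 0 were, among others, mbnl2 (0.17), rbfox1 (0.33) and celf3a (0.45). Below it were, among others, rbfox1l (-0.24), esrp2 (-0.425), rbm24a (-0.499), celf2 (-0.70) and qkia (-0.88). The probes of mbnl2 did not share a direction. Its other probes were at 0.72, 0.72, -0.22 and, almost as bright as the one read, -0.51. The direction of tissue regulators as a whole was not tested. The part of tissue composition in the differences of the splicing genes was not tested.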

How the data were processed

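The authors hybridized Cy3-labelled cRNA to zebrafish oligo arrays from Agilent, and the submitters' processing notes name Feature Extraction for the image readout. The deposited values, per the file headers, are normalized log2 signals, 1 for each of 43553 probes and array, with no control spots or background flags. The method of normalization was not given in the sources used here. Ranked within each array, the values of both lay within 0.026 of each other at 99% of ranks. Pearson's r between the arrays was 0.98 over the probes, which do not replicate each other. The arrays had medians of 7.17 (Tg) and 7.18 (WT), and 57.7% (Tg) and 57.5% (WT) of probes were above background. A second table, of the whole series, was identical to them at 43553 probes.

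The values were used as deposited. A gene is the set of probes with 1 symbol in the files and was read from its brightest probe by the mean of both arrays. Members were named through a RefSeq accession (64 genes), a current symbol (7) or an older symbol (3) in the reference gene table of GRCz12tu, used for names only. Scaffold names of 2705 probes, and of no other kind, carry Zv8, which gives the build of the positions. No test was run, since 1 array per group leaves no spread, and the number of arrays limits the precision. Genes were counted at 2-fold. Where only 1 array passed the background limit, the limit, or the value itself where higher, stood in for the other. The members and lists, and the background limit, were chosen with earlier results of these data known. Named genes are the 10 highest and 10 lowest members, the highest and lowest of each role, sf3b1, srsf2 and u2af1, duplicate pairs, members with probes past 0.5 in both directions or above background on 1 array only, and, of the other splicing genes, the 5 highest and 5 lowest and zrsr2. One gene that the rule names is not reported here. Alternatives were other scalings, background limits, probe rules, thresholds and names. The steps were tested on simulated data. Tools were numpy 2.4.6, scipy 1.17.1, pandas 2.3.3 and matplotlib 3.10.9 under Python 3.11.15.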

Additional observations from a re-analysis of the deposited data

How the results depend on the processing

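No paired analysis was possible because each group has 1 array, and no replicate could be left out. Values without a test were called moved when they differed by over 0.16, the median SD between probes of a gene, shares by their 95% binomial interval and counts by over 1.5 times. The count of genes at least 2-fold lower stayed 0 except at a 1.5-fold threshold (5), and the median of all members and the share above 0 did not move under any setting run. Other scalings could hardly move them, since the arrays were already alike in distribution. The values given for the whole series were identical and could not move them. The count at least 2-fold higher, 1 gene, was 0 with the mean over probes and at 4-fold, 3 with every probe on its own, 2 with the names of the reference table and 10 at 1.5-fold. The median of the U1 genes was -0.10 with the mean over probes and 0.066 with every probe on its own, a change of sign. That of the minor spliceosome was 0.42 with every probe on its own and with the reference names. That of the SR proteins was 0.05 with the reference names, also a change of sign, as that setting leaves out the 3 SR-related genes scaf11, pnisr and sfswap and adds 4 SR genes. With the mean over probes, prpf39 (0.18) and srsf2a (0.14) turned sign, srsf5a was at -0.09, lsm14aa at -0.32, u2af2a at -0.14, snrpa at -0.20, srsf6a at 0.40, prpf38a at 0.22 and snrpc at 0.68. By the same setting sf3b1 also turned sign, from -0.05 to 0.08, a change too small to be called moved. With the probe nearest the median, lsm14aa was at -0.19 and srsf2a at 0.09. The count of 12 other splicing genes past 2-fold was 8 with the mean over probes and 11 or 12 in the other settings run. Over all genes, 776 higher and 587 lower became 479 and 448 where the background limit was the 99th percentile of the receptor probes, with 12049 genes left.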
